A study of Homo sapiens with 4 samples.

Results

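The amnion-like epithelial cells described here were 1003 of the 4240 cells with at least 500 detected genes in 2 single-cell samples of human blastoids, or 366 of 2289 cells in blastoid 3 and 637 of 1951 in blastoid 4. A cell was counted as amnion-like when it held at least 1 UMI (a molecular tag that lets each captured RNA molecule be counted once) of 2 or more of TFAP2A, TFAP2B, GABRP, VTCN1 and KRT7, and when fewer than 3 of POU5F1, SOX2, NANOG, TDGF1 and PRDM14 were detected in it. The cells were thus chosen by the UMIs of these 10 genes, so the levels of those genes are a description, and they were left out of every test. The other 3237 blastoid cells of at least 500 genes, 1923 in blastoid 3 and 1314 in blastoid 4, were the main comparison.

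Blastoids are stem cell aggregates grown to resemble a blastocyst. The 4 samples share 1 line, KhES1, which consists of human embryonic stem cells in the primed state and for which no allele or transgene is given. The 2 hESC samples, hESC 1 and hESC 2, were KhES1 cells kept in mTeSR-1 on Matrigel. For blastoid 3 and blastoid 4, aggregates of such cells formed in Aggrewell plates with the ROCK inhibitor Y27632, which dissociated stem cells were given at passage as well, were embedded in a PNIPAAm-β-PEG hydrogel. They were held for some days in DMEM with FBS and then fed iBlastoid medium. Blastoid and stem cell titles name 1 day alike, whereas the blastoid tables name a later day, and each sample was grouped by its description. Nothing in the labels says that the samples of a group came from separate cultures, so the spread behind the p-values may be technical. Against the stem cells this is the spread between the samples of a group. Within the blastoids, where sums are paired by sample, it is how the difference between classes varies between the 2 samples. The test pools this spread over genes, so an SE or p-value can understate how much 1 gene varied. IGFBP3, for example, was called against the other blastoid cells at a log2 fold change of 0.31 ± 0.06 (SE). Its log2 fold change was 0.63 without blastoid 3 and -0.03 without blastoid 4.

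The amnion is the thin epithelium that encloses the amniotic cavity, and in primates it forms from the pluripotent epiblast around the time of implantation. BMP signalling drives primed pluripotent cells towards it in culture, and the AP-2 factors TFAP2A and TFAP2B are among the earliest genes to come on. Amnion shares GATA2, GATA3, TFAP2C and simple keratins with trophectoderm, the outer layer of the blastocyst, so those genes alone do not tell the 2 tissues apart.

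The promoters of the markers are shown because the markers were seen together in these cells and 2 of them encode AP-2 factors. Windows from 250 bases before to 50 bases after the start were taken from RefSeq (GRCh38.p14), and 4 of the 5 markers matched an entry. The AP-2 motif searched was GCCNNNGGC, which is its own reverse complement, and it occurred in 8146 of 35116 promoters (23.2%). Of the 4 marker promoters 1 held it, that of VTCN1, where the match begins 152 bases before the start. The bases before the start of 3 markers follow 5′ to 3′ on the strand of the gene, with the AP-2 match in capitals. They lie at chr1:117210928-117211177 on the minus strand for VTCN1, an immune checkpoint ligand, at chr5:170783475-170783724 on the plus strand for GABRP, a subunit of the GABA-A receptor, and at chr6:50818621-50818870 on the plus strand for TFAP2B.
VTCN1: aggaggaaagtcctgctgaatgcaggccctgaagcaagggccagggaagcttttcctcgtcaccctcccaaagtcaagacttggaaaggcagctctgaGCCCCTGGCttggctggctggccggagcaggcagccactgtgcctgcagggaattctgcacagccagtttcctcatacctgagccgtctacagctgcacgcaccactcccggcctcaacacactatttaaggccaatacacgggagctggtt
GABRP: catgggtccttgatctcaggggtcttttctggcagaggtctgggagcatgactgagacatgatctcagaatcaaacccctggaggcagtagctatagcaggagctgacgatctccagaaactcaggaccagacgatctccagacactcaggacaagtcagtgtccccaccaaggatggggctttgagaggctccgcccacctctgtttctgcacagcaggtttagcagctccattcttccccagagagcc
TFAP2B: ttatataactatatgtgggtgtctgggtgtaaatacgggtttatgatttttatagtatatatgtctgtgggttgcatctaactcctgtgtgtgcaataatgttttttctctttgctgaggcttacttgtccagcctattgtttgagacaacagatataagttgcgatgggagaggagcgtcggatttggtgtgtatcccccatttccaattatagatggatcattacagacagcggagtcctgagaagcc
The motif was found in the promoters of 8 of 19 matched genes of an amnion list outside the rule (42.1%). It was found for 6 of 22 matched epithelial junction genes (27.3%) and 4 of 22 matched mesenchyme genes (18.2%). The 8 were HOXD1, WNT6, ANXA3, HAND1, TBX20, GADD45G, CTSV and BMP4. WNT6 and ANXA3 were higher in the amnion-like cells than in the other blastoid cells. HAND1, GADD45G, BMP4 and TBX20 were lower, and CTSV was not among the lower genes of the list. HOXD1 and TBX20 had next to no UMIs in the amnion-like cells. The lists count 1 promoter per gene, whereas the share over all promoters counts every one. The motif of grainyhead-like factors, AACCGGTT, occurred in 47 promoters (0.134%) and in none of the 4 marker promoters. The GATA motif AGATAA, searched on both strands, occurred in 3628 (10.3%) and likewise in none of the 4. A match is a run of letters and not a measured site.

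Amnion-like cells made up 16% of blastoid 3 (95% exact Clopper-Pearson interval 14.5 to 17.6) and 32.6% of blastoid 4 (30.6 to 34.8), with a mean of 24.3% ± 11.8 (SD, n = 2). These intervals cover counting error only. The 2 intervals do not overlap. In the stem cells, 0 of 2265 cells of hESC 1 met the rule, which allows a share of up to 0.132%, and 1 of 3175 of hESC 2 did (0.0315%). On the 5 amnion markers alone, without the limit on pluripotency genes, 12 cells of hESC 1 (0.53%) and 5 of hESC 2 (0.157%) had 2 or more. The cells of blastoid 4 were deeper, so the count was repeated on cells thinned to 2000 UMIs each, leaving out shallower ones. The share then was 193 of 2181 cells (8.85%) in blastoid 3 and 350 of 1909 (18.3%) in blastoid 4, again higher in blastoid 4.

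The count of markers per cell set the blastoid samples apart from the stem cells. In blastoid 3, 98 cells held 2 of the 5 markers, 129 held 3, 102 held 4 and 37 held all 5. In blastoid 4 the numbers were 104, 169, 226 and 149. No stem cell held more than 2. All 5 markers together were the most frequent combination in both samples, in 10.1% of the amnion-like cells of blastoid 3 and 23.2% of those of blastoid 4. The limit on pluripotency genes removed 0 cells of blastoid 3 with 2 or more markers and 11 of blastoid 4, and 297 and 504 of the amnion-like cells had none of those 5 genes.

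**Figure D1:**
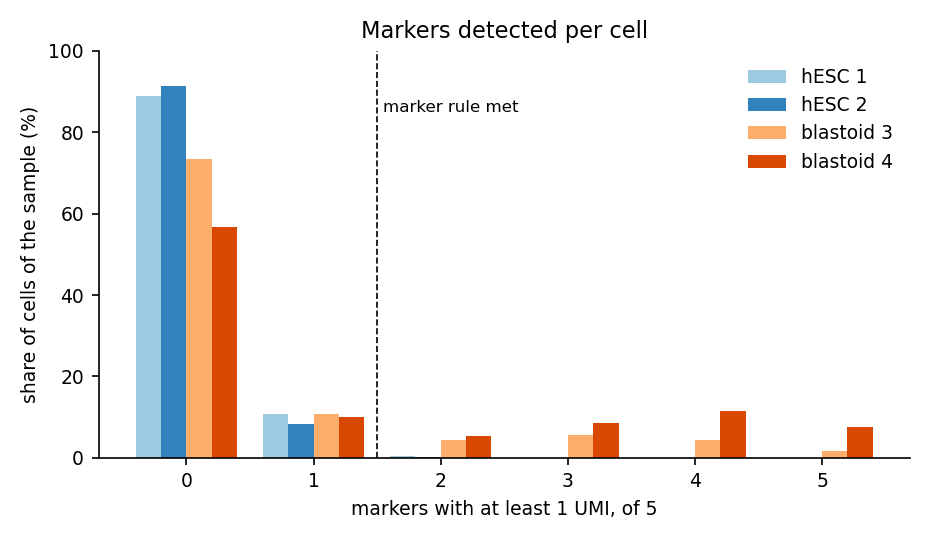
Share of the cells of each sample, in percent, by the number of the 5 amnion markers with at least 1 UMI. The dashed line marks the threshold of 2 markers; all bars of hESC 1 and hESC 2 to its right come to 0.53% and 0.157% of their cells, and blastoid 4 stands above blastoid 3 at each number from 2 to 5.

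TFAP2A, an AP-2 transcription factor, was detected in 80.3% of the amnion-like cells of blastoid 3 and 84% of those of blastoid 4, against 7.44% and 8.6% of the other cells. GABRP was detected in 72.7% and 85.6%, against 2.13% and 3.73%. KRT7, a keratin of simple epithelia, was detected in 70.2% in both samples, against 2.29% and 2.28%. The 2 remaining markers were in fewer cells: VTCN1 was in 50.8% and 66.7% of the amnion-like cells and TFAP2B in 47.3% and 60%. The median UMI count was 6756 and 9379 per amnion-like cell and 6141 and 8575.5 per other cell. After thinning to 2000 UMIs, TFAP2A was in 42.9% and 38.4% of the amnion-like cells against 2.57% and 2.11% of the others, and GABRP in 42.3% and 47.9% against 0.765% and 1.25%.

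In CPM, the UMIs of a gene per 1000000 summed UMIs, GABRP stood at 329 in blastoid 3 and 375 in blastoid 4 in the amnion-like cells, at 4.16 and 6.56 in the others, and at 10.6 and 8.92 in hESC 1 and hESC 2. TFAP2A stood at 282 and 226, at 16.2 and 13.5 in the others, and neither stem cell table lists it. KRT7 stood at 255 and 245, at 5.12 and 2.98 in the others, and at 11.2 and 10.1 in the stem cells. The other blastoid cells are what the rule left after taking out cells with 2 or more markers, so their levels of these genes are set by it. POU5F1, the pluripotency factor OCT4, stood at 28.6 and 27.5 in the amnion-like cells, at 67.1 and 125 in the others and at 1154 and 1141 in the stem cells. GABRP lies at chr5:170763350-170814047, TFAP2A at chr6:10393186-10419659, TFAP2B at chr6:50818723-50847613, VTCN1 at chr1:117143587-117210960 and KRT7 at chr12:52232520-52252186 (GRCh38, GENCODE), all of them protein-coding genes.

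Cells just inside and just outside the threshold differed in genes that the rule did not use. Among cells within the limit on pluripotency genes, EPCAM, a surface adhesion molecule of epithelia, stood at 117 CPM in the 233 cells of blastoid 3 with 1 marker and at 434 CPM in the 98 with 2, and at 53.7 in 167 cells and 404 in 98 in blastoid 4. GATA3 stood at 106 and 401 CPM in blastoid 3 and at 80.2 and 290 in blastoid 4. COL3A1, a fibrillar collagen of mesenchyme, stood at 955 CPM with 1 marker and 65.3 with 2 in blastoid 3, and at 862 and 170 in blastoid 4. Most of the step in these genes lay between 1 and 2 markers. PAPPA2, a protease that cleaves IGF-binding proteins, was higher again at 4 and 5 markers, with 56.4, 59.8, 184 and 181 CPM at 2 to 5 markers in blastoid 3 and 40.5, 154, 294 and 375 in blastoid 4.

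**Figure D2:**
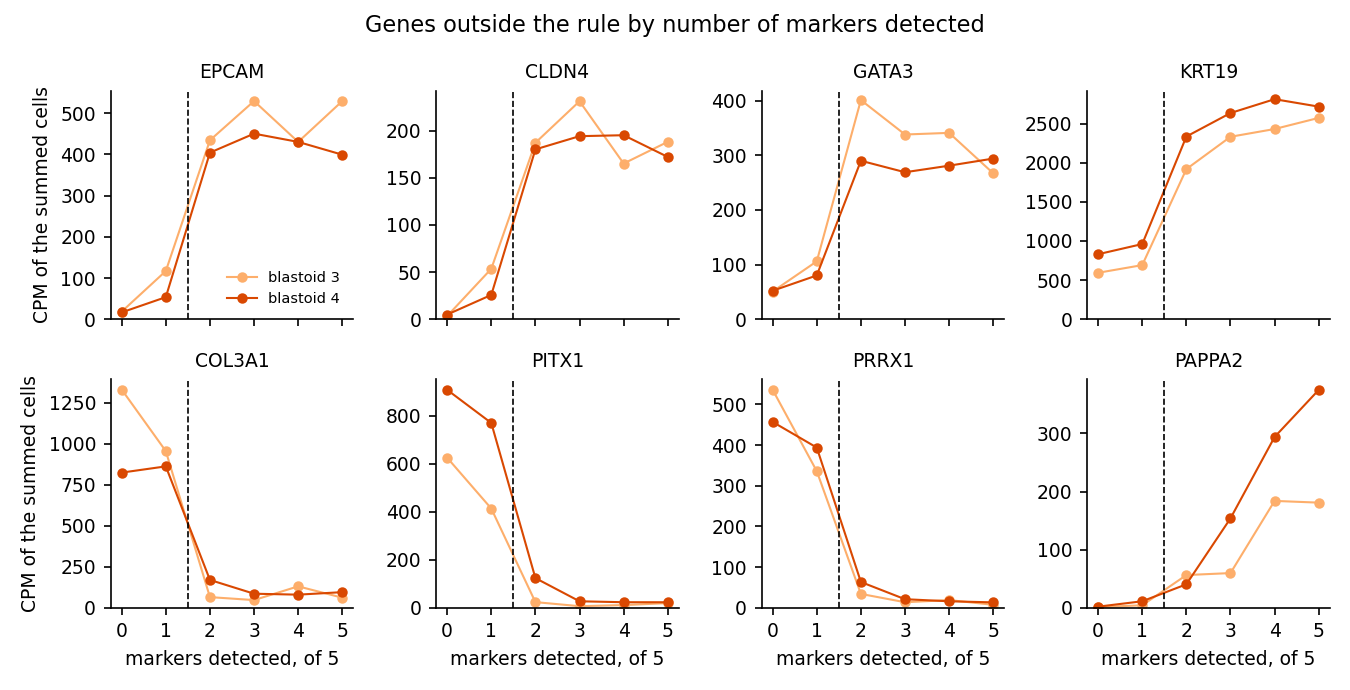
Levels in CPM of the summed cells with 0 to 5 of the amnion markers, for 8 genes outside the rule, with 1 line per blastoid sample and the threshold dashed. EPCAM in blastoid 3 steps from 117 to 434 between 1 and 2 markers and COL3A1 from 955 to 65.3, while PAPPA2 in blastoid 4 reaches 375 at 5 markers.

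The blastoid libraries share cell barcodes. Of the 637 amnion-like cells of blastoid 4, 369 (57.9%) have a barcode that blastoid 3 also holds, against 666 of its 1314 other cells (50.7%), while no cell of blastoid 3 with at least 500 genes does, so the partners lie among its barcodes of fewer genes. The hESC tables share 1317 barcodes. Without the shared barcodes the share of amnion-like cells in blastoid 4 was 29.3% (268 of 916). Doublets, which are 2 cells under 1 barcode, were called in 9 and 20 of the amnion-like cells (2.46% and 3.14%) and in 32 and 15 of the others (1.66% and 1.14%). The summed UMIs were 2730502 and 6398463 for the amnion-like cells, 12497080 and 11741072 for the other blastoid cells, and 13488703 and 15913590 for the stem cells. The median mitochondrial share was 8.42% and 9.45% in the amnion-like cells and 8.64% and 9.87% in the others.

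The blastoid cells were also clustered without the 10 genes of the rule. This shows whether the chosen cells group on other genes, but it cannot tell amnion from another epithelium. Of 12 clusters, 3 were made up mostly of amnion-like cells, and these 3 (clusters 2, 6 and 10) held 967 of the 1003 (96.4%) and 92 of the 3237 other cells (2.84%). Of the remaining 36, 11 lay in cluster 11, whose 45 cells had a median of 1008 UMIs. Of the amnion list outside the rule, 18 of 20 genes had enough UMIs to be tested, and its members differed in level. HOXD1 had 0 UMIs in the amnion-like cells (the blastoid 4 table does not list it) and TBX20 had 1. ISL1, a LIM homeobox factor of primate amnion, stood at 33.3 and 25.8 CPM, HEY1, a Notch target, at 167 and 188, and WNT6, a secreted WNT ligand, at 41 and 40.6. Among genes that both blastoid tables list, SOX17 of endoderm and PECAM1 and TAL1 of endothelium and blood had 0 UMIs in the amnion-like cells of both samples. Other genes of these lists were detected there at low counts. APOA2 of endoderm had 12 and 10 UMIs, APOA1 had 1 and 3, and CDH5 of endothelium had a few in each sample. Trophoblast genes were not at 0, with 44 and 90 UMIs of CYP19A1 and 46 and 33 of CGA. After thinning, 12 of 352 amnion-like cells of blastoid 3 (3.41%) and 43 of 632 of blastoid 4 (6.8%) held 3 or more of 9 mesenchyme markers, against 63.8% and 65.2% of the other cells. Without thinning these shares were 22.7% and 38.5% against 84% and 86.2%. For 3 or more of 10 trophoblast markers the thinned counts were 1 of 352 and 0 of 632, which in blastoid 4 allows a share of up to 0.475%, against 2 of 1829 and 0 of 1277 of the other cells. Without thinning these shares were 1.37% and 2.04% of the amnion-like cells and 0.156% and 0.0761% of the others.

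The 3 clusters differed in their leading genes, which are given without a test because the same genes made the clusters. Cluster 2 held 51.9% of the amnion-like cells of blastoid 3 and 73.5% of those of blastoid 4, cluster 6 held 36.9% and 19.3%, and cluster 10 held 7.1% and 3.92%. Amnion-like cells of cluster 2 had PAPPA2 at 204 and 337 CPM, IGFBP5, an IGF-binding protein, at 312 and 398, TGFBI, a matrix protein, at 361 and 407, and STMN2, a microtubule regulator best known from neurons, at 496 and 720. In cluster 6 PAPPA2 stood at 2.16 and 5.95 CPM, and the cells instead had the chemokine CXCL12 at 396 and 329 CPM, the neurokinin precursor TAC3 at 332 and 538, the homeobox genes MSX1 at 347 and 277 and DLX5 at 102 and 96.1, and KRT23 at 115 and 62.9. ISL1 stood at 48.5 and 50.2 in cluster 6 and at 31.2 and 20.6 in cluster 2, and HEY1 at 128 and 104 against 226 and 226. GABRP, a gene of the rule, was higher in cluster 2 than in cluster 6, at 470 and 461 against 198 and 165.

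Cluster 10 stands apart and was left unnamed. Its 26 and 25 amnion-like cells had GATA3 at 920 and 607 CPM, GATA2 at 185 and 197, KRT7 at 460 and 524, the imprinted gene PEG10 at 5116 and 2096, the gastrin receptor gene CCKBR at 527 and 406, the caveola gene CAV1 at 381 and 295, aromatase CYP19A1 at 74.7 and 47.6, and GCM1, a factor of syncytiotrophoblast formation, at 31.5 and 31.8. HEY1 was at 3.93 and 12.7 CPM there, ISL1 at 0 and 3.18 and TFAP2B at 27.5 and 6.35. Its 10 leading genes by ratio were CGA, CCKBR, CYP19A1, CAV1, LGALS16, S100P, MUC15, S100A9, CYP11A1 and ERVW-1, of which 3 (CGA, CYP19A1 and ERVW-1) are among the 10 trophoblast markers and none among the amnion markers. These 3 ratios rest on few cells. In blastoid 3 the 345 CGA UMIs of the cluster lay in 3 of 33 cells, 260 of them in 1 cell. None of the 27 cells in blastoid 4 had any. Of the 209 CYP19A1 and 51 ERVW-1 UMIs of the cluster in blastoid 3, 132 and 33 lay in 1 cell each. Amnion-like cells held 35 of these CGA, 19 of these CYP19A1 and 9 of these ERVW-1 UMIs. In blastoid 4 they held all 15 CYP19A1 and 2 ERVW-1 UMIs of the cluster. The 51 amnion-like cells of cluster 10 thus meet the rule while ISL1 and HEY1 are near 0 in them. Their CYP19A1 and GCM1 levels stand above those in clusters 2 and 6, for GCM1 on 8 and 10 UMIs. The label goes against these values, so these cells are called here by their cluster number.

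**Figure D3:**
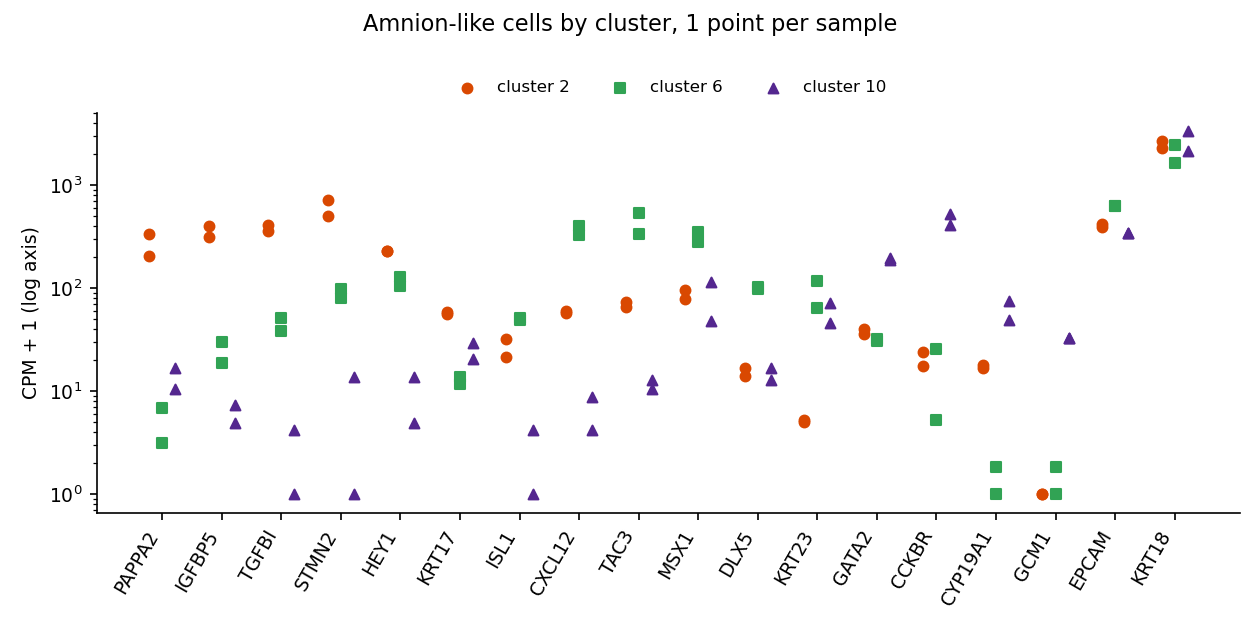
Levels (CPM + 1, log axis) of named genes in the amnion-like cells of clusters 2, 6 and 10, with 1 point per blastoid sample. PAPPA2, IGFBP5, TGFBI and STMN2 are highest in cluster 2, CXCL12, TAC3, MSX1 and DLX5 in cluster 6, and CCKBR, CYP19A1 and GCM1 in cluster 10.

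The amnion-like cells were then compared with the other cells of the same blastoid samples, with sums per sample paired by library. Epithelial adhesion and keratin genes were higher in them and mesenchyme, mesoderm and cell cycle genes were lower. Of 14847 genes tested with the edgeR quasi-likelihood test, 3889 (26.2%) were called higher and 3751 (25.3%) lower at a Benjamini-Hochberg adjusted p under 0.05, or 51.5% in all (7640), so that a call by itself is common here. With a log2 fold change past 1 as well, 1779 (12%) were higher and 1548 (10.4%) lower, or 22.4% in all. The calls numbered 4303 without the pairing, 3574 with DESeq2 and 2829 in cells thinned to 2000 UMIs. For the thinned calls the rule was applied anew to the thinned counts, which left 193 and 350 cells as amnion-like. Cells that no longer met it were summed with the other cells. The detection shares after thinning given above kept the first classes. Scaling by library size in place of TMM moved the median of all genes by -0.14 on the log2 scale and the split to 2931 higher and 4705 lower, and turned the direction of none of the genes named here.

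Epithelial junction and polarity genes were higher. Of 40 tested, 38 were called higher and 0 lower, 36 of them past a log2 of 1, with a median log2 fold change of 2.43 against -0.02 over all genes. EPCAM stood at 477 and 423 CPM in the amnion-like cells of blastoid 3 and blastoid 4 and at 38.5 and 46.8 in the other cells, a log2 fold change of 3.53 ± 0.08 (SE, n = 2 samples; adjusted p = 1.27e-120). The tight junction gene CLDN4 stood at 195 and 186 CPM against 11.2 and 14.5 (4.02 ± 0.10), and CDH1, which encodes E-cadherin, at 379 and 279 against 57.9 and 51.5 (2.71 ± 0.08). In each of these genes every amnion-like sum lay above every sum of the other cells. Desmoplakin, DSP, reached 1775 and 1672 CPM against 380 and 418, while the desmosome genes DSG2 (176 and 187 against 234 and 195 CPM) and PKP2 (131 and 100 against 155 and 122) were not called. All 3 grainyhead-like genes, which encode activators of epithelial genes, were called higher, with GRHL2 at 56.4 and 46.7 CPM against 3.92 and 1.96. The repressors of epithelial genes ZEB1 (1.83 and 0.781 against 29.3 and 29.9 CPM) and ZEB2 (5.13 and 4.84 against 102 and 74.4) were lower.

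Of 9 genes with a KRT symbol tested outside the rule, 8 were called higher and 1 lower, and the median was 2.00. The lower one was KRT222 (-1.33 ± 0.35), named after its value was seen because it is the exception. KRT19 stood at 2293 and 2677 CPM against 588 and 789, and KRT18 at 2006 and 2589 against 556 and 762, so these simple keratins were abundant in the other cells as well. KRT17 was near 0 in the other cells, at 37 and 43.9 CPM against 0.8 and 1.62. On a list of 24 surface ectoderm and epidermis genes, 15 had enough UMIs to be tested. All 15 were called higher, with a median log2 fold change of 3.95. A gene near 0 in the other cells passes the count filter through the amnion-like sums and could hardly be called lower. Defining members of the list were at low levels. TP63, the master factor of stratified epithelia, stood at 3.3 and 2.5 CPM, and KRT14, a basal keratin of skin, at 0.366 and 0 CPM. The 6 DLX genes tested, homeobox genes of ectoderm and placenta, were all called higher, among them DLX3 at 28.6 and 24.2 CPM against 1.04 and 1.36.

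On the amnion list outside the rule, 11 of 18 tested genes were called higher and 6 lower, and the median was 0.91. HEY1 (167 and 188 CPM against 31 and 31.8; 2.63 ± 0.09), ISL1 (33.3 and 25.8 against 8.48 and 8.6; 1.90 ± 0.17), WNT6 (41 and 40.6 against 1.36 and 1.87; 4.78 ± 0.21) and the integrin ITGB6 (13.6 and 39.2 against 0.24 and 1.19; 5.33 ± 0.28) were higher. IGFBP3 was called higher at 0.31 ± 0.06, but it stood at 400 and 517 CPM against 445 and 369, so the groups overlap, and without blastoid 4 its log2 fold change was -0.03. The 6 lower ones were BMP4, BAMBI, HAND1, GADD45G, POSTN and TBX20. HAND1, a factor of extraembryonic tissues and heart, stood at 450 and 558 CPM in the amnion-like cells and at 765 and 946 in the others, so it was abundant in both.

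Of 15 genes that amnion shares with trophectoderm, 11 were called higher and 4 lower, and the median was 1.94. GATA3 stood at 344 and 283 CPM against 55.9 and 50.8 (2.68 ± 0.08), and TFAP2C, an AP-2 factor outside the rule, at 77.3 and 53.9 against 9.6 and 7.75 (3.04 ± 0.14). CDX2 (17.9 and 13.6 against 78.5 and 69.5 CPM), MSX1, TBX3 and HAND1 were lower. Of 22 trophoblast genes tested, 17 were called higher and 2, SDC1 and PGF, lower, and the median was 2.47, above that of the amnion list. Among the 17 were NR2F2, an orphan nuclear receptor, at 137 and 173 CPM against 15.9 and 16, VGLL1, a TEAD cofactor, at 31.5 and 47 against 1.6 and 1.11, and CCKBR at 63.4 and 36.6 against 6 and 3.83. Of the CCKBR UMIs, 134 in blastoid 3 and 128 in blastoid 4 lay in the 26 and 25 amnion-like cells of cluster 10, against 34 and 77 in those of cluster 2. CGA, the hormone subunit that marks syncytiotrophoblast, stood at 16.8 and 5.16 CPM against 27.2 and 2.04 and was not called. ELF5, GCM1, SIGLEC6 and XAGE2 were called higher at levels under 5 CPM. GCM1 had 8 and 10 UMIs in the amnion-like cells of cluster 10, 0 and 0 in those of cluster 2 and 0 and 1 in those of cluster 6. For SIGLEC6 these were 7 and 5, 3 and 1, and 0 and 4. ELF5 (5 and 9 against 2 and 0) and XAGE2 (5 and 11 against 1 and 0) had more in cluster 2 than in cluster 10. PEG10 (1341 and 386 CPM against 974 and 392) was called higher at a log2 of 0.36 ± 0.05, a value that was -0.03 with at least 3 markers required.

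**Figure D4:**
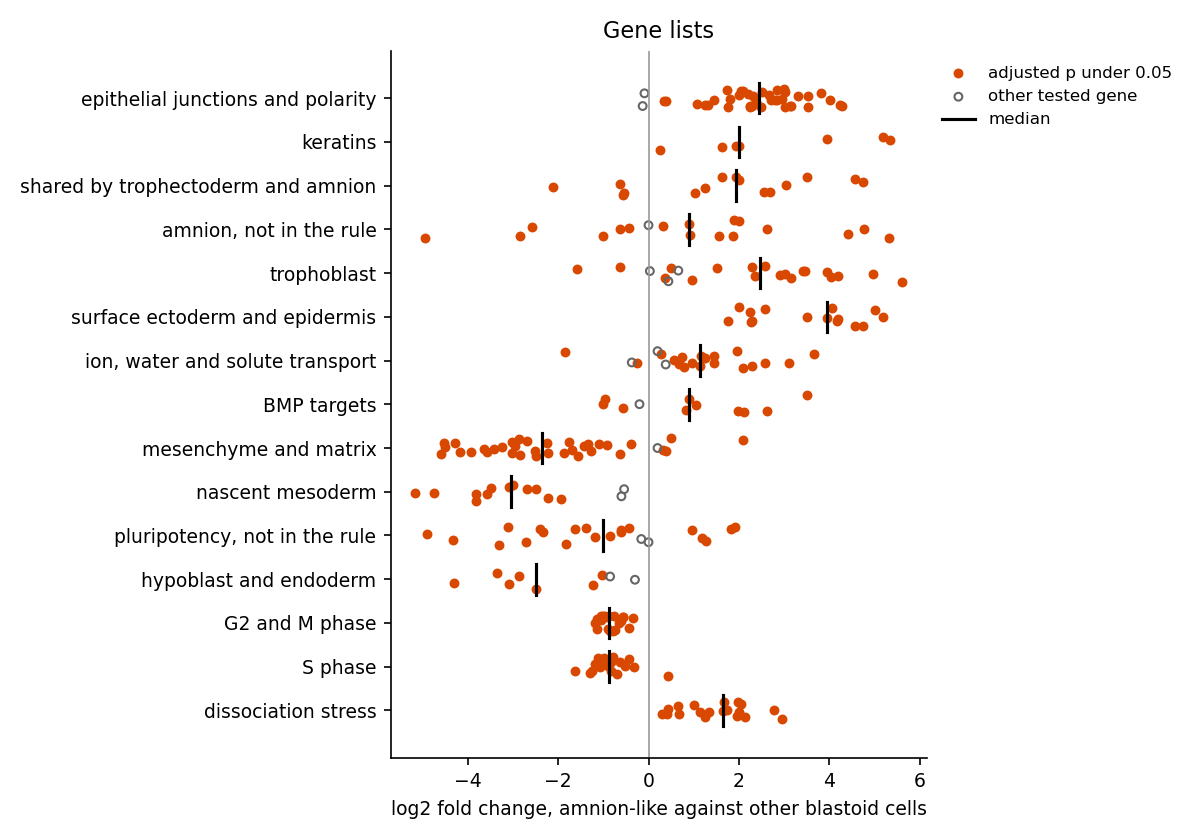
Log2 fold change of the amnion-like cells against the other blastoid cells for every tested gene of 15 lists, with called genes filled, other tested genes open and the median of each list as a bar. All but 2 of the 40 junction genes are called and to the right of 0 (median 2.43), and 31 of the 36 mesenchyme genes are called and to the left (median -2.36).

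Among BMP ligands, BMP4 was lower in the amnion-like cells, at 31.9 and 31.3 CPM against 210 and 203 (-2.57 ± 0.10), as were BMP2 (3.66 and 6.41 against 36.2 and 34.9) and BMP5. BMP7 (70.7 and 71.6 against 24 and 27.3 CPM) and GDF6 were higher. Of 11 BMP receptors and SMAD genes tested, 1 was called higher and 5 lower, and none of them reached a log2 of more than 1 upward. Of 11 BMP targets, 7 were called higher and 3 lower, and the median was 0.89. ID1, an inhibitor of bHLH factors and a direct BMP target, stood at 990 and 966 CPM against 214 and 284 (2.12 ± 0.06), and ID2, ID3 and ID4 were also higher. BAMBI, MSX1 and SMAD7 were the 3 lower ones. Of 10 BMP inhibitors, 5 were called higher, among them FST (61.2 and 108 CPM against 27.4 and 34.9), and 3 lower.

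Among WNT ligands, WNT4 (53.1 and 48.3 CPM against 2.08 and 1.36; 5.01 ± 0.19), WNT6 and WNT2 were higher and WNT3, WNT5A (19.4 and 24.5 against 340 and 238; -3.45 ± 0.10), WNT5B and WNT11 lower, of 9 tested. Of 21 WNT receptors, inhibitors and target genes, 5 were called higher and 12 lower. The targets LEF1 (35.2 and 25.3 against 169 and 140 CPM), SP5 and AXIN2 were among the lower ones, and the inhibitor FRZB stood at 1.83 and 1.56 against 29.4 and 30.

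Of 23 transport genes, 18 were called higher and 2 lower, and the median was 1.14. The glucose transporter SLC2A3 stood at 1428 and 1118 CPM against 121 and 97.9 (3.67 ± 0.06), and SLC2A1 at 377 and 321 against 81.9 and 75. ATP1B1, which encodes a beta subunit of the sodium pump, and the epithelial sodium channel gene SCNN1A were higher, while the water channels AQP1 (2.93 and 9.38 against 11.4 and 8.77 CPM) and AQP3 were not called. Of 15 secreted peptides and hormones, 9 were called higher and 5 lower. TAC3 (153 and 149 against 22.4 and 21.2 CPM) and CRH, corticotropin-releasing hormone (27.8 and 39.9 against 3.12 and 2.3), were higher, and somatostatin SST (1.46 and 2.34 against 73.8 and 35.2) was lower.

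The 10 largest rises among genes at a mean log2 CPM of at least 5 were PAPPA2, CYP1B1, KCNK12, LINC00379, IGFBP7, ANXA3, CLDN3, PRSS12, CLDN4 and P2RY6. PAPPA2 stood at 112 and 247 CPM against 1.68 and 3.75, a log2 fold change of 6.18 ± 0.13. CYP1B1, an enzyme that oxidises steroids, stood at 201 and 231 against 8.24 and 8.01 (4.87 ± 0.11), and the potassium channel gene KCNK12 at 105 and 97.1 against 3.52 and 4.6 (4.76 ± 0.14). The 10 largest falls were TECRL, PITX1, PRPH, SST, EPHA7, DCN, DDR2, RSPO2, LIX1 and PRRX1. PITX1, a homeobox gene of hindlimb and pituitary, stood at 14.3 and 38.6 CPM against 575 and 797 (-4.50 ± 0.09), PRRX1, a factor of limb and head mesenchyme, at 19.4 and 23.3 against 491 and 403 (-4.17 ± 0.09), and the proteoglycan DCN at 8.42 and 10 against 258 and 179 (-4.29 ± 0.12).

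Mesenchyme and matrix genes were mostly lower, with 31 of 36 called lower, 4 higher and a median of -2.36 (log2 fold change). COL3A1 stood at 78 and 98.5 CPM against 1229 and 747 (-3.24 ± 0.07), and VIM, the intermediate filament of mesenchymal cells, at 166 and 294 against 750 and 859. The 4 higher ones were COL1A2 (435 and 389 against 404 and 301 CPM), COL5A2, FN1 (182 and 178 against 201 and 130, a log2 of 0.31 that was -0.01 without blastoid 4) and the actin-binding TAGLN (81.3 and 111 against 23.1 and 26.6). Of 14 nascent mesoderm genes, 12 were called lower and 0 higher, with a median of -3.04. The cardiac and limb factor HAND2 stood at 11 and 14.1 against 245 and 135 CPM and MESP1 at 1.1 and 1.41 against 33.8 and 15.1. Of the 29 HOX genes tested, 26 were called lower and 0 higher.

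Of 22 pluripotency genes outside the rule, 15 were called lower and 5 higher. DPPA4 stood at 78.4 and 68 CPM against 146 and 104, and TERF1 at 74.7 and 63.3 against 183 and 206. The 5 higher ones were L1TD1 (578 and 491 against 147 and 164 CPM), CD24, ZFP42, KLF4 and TFCP2L1. All 20 genes of G2 and M phase were called lower, with a median of -0.87, for example MKI67 at 136 and 127 against 252 and 242 CPM. Of 20 S phase genes 19 were called lower and CCNE1 higher, at 0.43 ± 0.13, which was -0.10 after thinning to 2000 UMIs. On the remaining lists, 14 of 19 hypoxia and glycolysis genes were called higher and 2 lower, 7 of 9 endoderm genes lower and 0 higher, 3 of 10 neural genes higher and 4 lower, 2 of 5 endothelium and blood genes higher and 3 lower, and 1 of 5 germ cell genes, TFAP2C, higher and 1, PDPN, lower.

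Dissociation stress genes moved with the comparison as well. All 19 tested were called higher in the amnion-like cells, with a median log2 fold change of 1.64, for example FOS at 969 and 922 CPM against 309 and 312. The part of this stress signal in the other differences was not tested. Without the called doublets 7545 genes were called, and against only those other cells that held 0 markers 7388 were.

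Against the stem cells of hESC 1 and hESC 2, the amnion-like cells had higher levels of epithelial, amnion and trophoblast genes. Pluripotency genes were lower. Of 15158 genes tested, 4660 (30.7%) were called higher and 4253 (28.1%) lower, or 58.8% in all. The calls numbered 6595 with DESeq2 and 4853 in cells thinned to 2000 UMIs, again with the rule applied to the thinned counts. With a log2 past 1 as well, 2913 (19.2%) were higher and 2344 (15.5%) lower, or 5257 (34.7%) in all. Of the genes tested, 252 are in neither hESC table, and all 252 were called higher. Such a gene passes the count filter only through the amnion-like sums, so its direction was set in advance, also within the lists below. For such a gene the fold is a lower bound, set against 9.15 counts over both stem cell samples. That is the one-sided 95% Poisson limit for 1 UMI in each of 2 barcodes of each table, taken as the most that an unlisted gene could hold.

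Of 40 junction genes, 30 were called higher than in the stem cells and 1, MAL2, lower, at a median (log2 fold change) of 0.95 against 0.02 over all genes. EPCAM stood at 477 and 423 CPM in the amnion-like cells and at 226 and 222 in hESC 1 and hESC 2 (0.97 ± 0.13; adjusted p = 7.45e-05), and CDH1 at 379 and 279 against 143 and 136 (1.20 ± 0.15). For both genes the stem cells lay between the amnion-like cells and the other blastoid cells. CLDN4 (195 and 186 against 19.9 and 19.2 CPM; 3.25 ± 0.14) and DSP (1775 and 1672 against 129 and 135; 3.67 ± 0.14) were well above both. KRT18 stood at 463 and 446 CPM in the stem cells and KRT19 at 142 and 127. All 10 genes with a KRT symbol tested were called higher.

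Of 17 amnion genes outside the rule 16 were called higher and 0 lower, and CLDN10 (48.3 and 60.2 CPM against 50.7 and 50.3) was not called. All 15 genes shared by trophectoderm and amnion were higher. Of 21 trophoblast genes tested 18 were called higher and 0 lower. Their median log2 fold change was 5.68, against 6.68 for the amnion list. With bounded genes at their bound these medians were 2.82 and 6.49. Among the named rises, HAND1 was at least 1688-fold higher, GATA3 at least 968-fold, TBX3 at least 587-fold, NR2F2 at least 521-fold, and LINC00379 at least 519-fold. P2RY6, ANXA1, COL3A1, ANKRD1 and MEIS2 followed, with bounds of 455, 357, 297, 289 and 279. HAND1, TBX3, COL3A1, CDX2 and BMP4 were therefore lower in the amnion-like cells than in the other blastoid cells but higher than in the stem cells. Of 36 HOX genes 17 had enough UMIs to be tested, and all 17 were called higher than in the stem cells. The median was 8.70, or 4.08 with bounded genes at their bound. For those at 0 in the stem cells the filter set this direction. Of 35 mesenchyme genes 31 were called higher, with a median log2 fold change of 3.02, or 2.88 with bounded genes at their bound.

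Of 26 pluripotency genes outside the rule 24 were called lower and 2, KLF4 and TFCP2L1, higher, with a median of -4.08. TERF1 stood at 74.7 and 63.3 CPM against 1366 and 1367 (-4.35 ± 0.15), DPPA4 at 78.4 and 68 against 479 and 518, and L1TD1, which encodes an RNA-binding protein, at 578 and 491 against 1029 and 1132 (-1.05 ± 0.13). The named falls were ZIC5, at least 172-fold lower, and ZIC2, LNCPRESS1, FOXD3-AS1, PLA2G4C, MT1H, POU3F1, MIR302CHG, SFRP2 and MT1G, with log2 fold changes from -10.69 to -6.53. BMP targets were higher, 10 of 11, with ID2 at 888 and 857 CPM against 46.9 and 39.9 and ID3 (316 and 359 against 271 and 249) not called. All 19 dissociation stress genes were higher here too, with a median of 2.66 and FOS at 13 and 14 CPM in the stem cells, and of 20 G2 and M phase genes 18 were lower. The stem cells were harvested from dishes and the blastoids from a gel, so handling and cell state cannot be told apart.

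**Figure D5:**
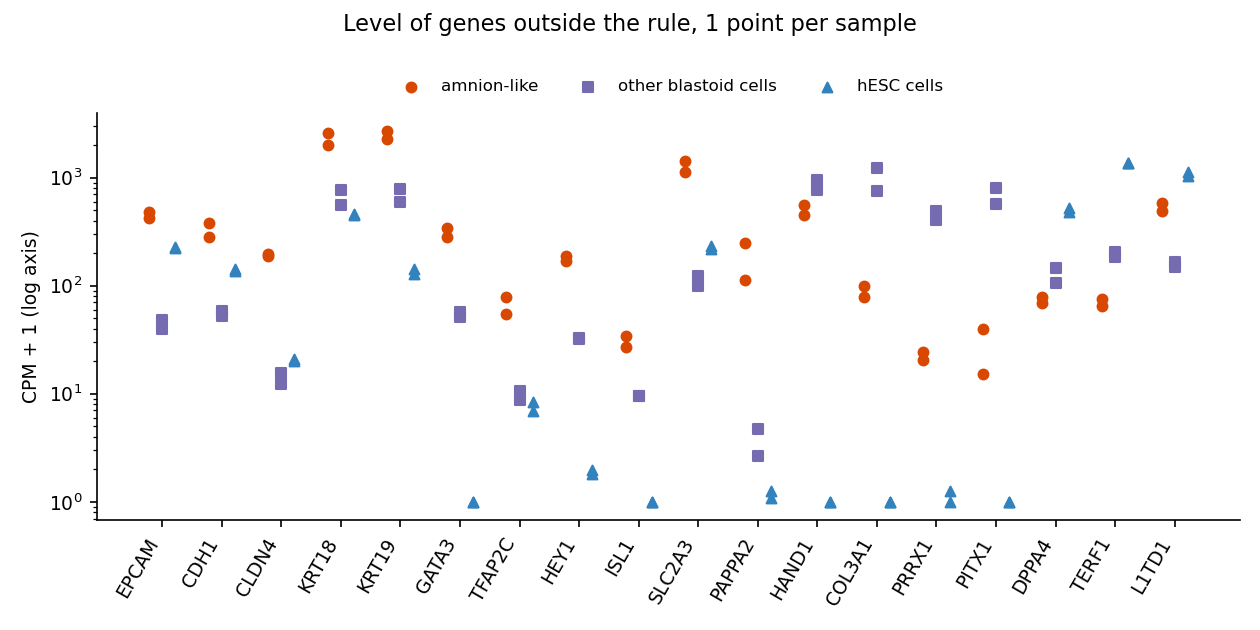
Levels (CPM + 1, log axis) of 18 genes outside the rule in the amnion-like cells, the other blastoid cells and the stem cells, with 1 point per sample. EPCAM and CDH1 are highest in the amnion-like cells with the stem cells in between, COL3A1, PRRX1 and PITX1 are highest in the other blastoid cells, and DPPA4, TERF1 and L1TD1 in the stem cells.

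The amnion-like cells also varied among themselves. They were split into those with a UMI of GABRP or VTCN1, 302 cells in blastoid 3 and 581 in blastoid 4, and those with neither, 64 and 56 cells, which met the rule through at least 2 of TFAP2A, TFAP2B and KRT7. The sets are therefore formed on genes of the rule and entered it by different routes. The calls and p-values only describe these sets and give no support to the label. The split also sorts the cells by cluster, as the cluster shares given with the falls show. The median UMI counts of the 2 sets were 6679.5 and 7222 in blastoid 3 and 9379 and 9372.5 in blastoid 4. Of 10291 genes tested with the sets of a sample paired, 311 (3.02%) were called higher in the GABRP or VTCN1 cells and 180 (1.75%) lower, or 4.77% in all. With a log2 past 1 as well, 205 (1.99%) were higher and 114 (1.11%) lower, or 3.1% in all. The calls numbered 137 without the pairing, 131 with DESeq2, 56 after thinning and 272 without shared barcodes. For the thinned calls both the rule and the split were applied anew to the thinned counts. In a comparison added after the data were seen, cells of both sets had to hold at least 2 of TFAP2A, TFAP2B and KRT7, which left 211 and 480 GABRP or VTCN1 cells beside the 64 and 56. It called 434 genes, 422 of them among the 491 with the same sign, with PAPPA2 at 4.92 ± 0.30 and CAV1 at -4.45 ± 0.23 (log2 fold change).

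The largest rises were NPY, PAPPA2, IGFBP5, CCBE1, TGFBI, CCDC3, IGFBP7, CA3, KRT17 and MTUS2. PAPPA2 stood at 135 and 271 CPM in the GABRP or VTCN1 cells and at 10 and 5.23 in the cells with neither (4.79 ± 0.31; adjusted p = 1.16e-08), IGFBP5 at 215 and 326 against 20.1 and 13.9 (4.03 ± 0.24) and TGFBI at 256 and 332 against 20.1 and 31.4 (3.52 ± 0.20). HEY1 was higher as well, at 197 and 202 CPM against 32.2 and 41.8 (2.44 ± 0.19), and so was the sodium pump subunit ATP1B1 (187 and 336 against 60.3 and 69.7). The sums did not overlap in any of these 5 genes. NPY stood at 2.01 and 0 CPM in the cells with neither. It thus passed the count filter through the GABRP or VTCN1 sums and could hardly be called lower. Of 17 amnion genes outside the rule, 8 were called higher and 3 lower, and ISL1 (35.4 and 21.6 against 24.1 and 68 CPM) was not called. CLDN10 was among the 3, at -1.45 ± 0.36, but stood at 51.5 and 44.1 CPM against 34.2 and 223, and its log2 fold change was 0.71 without blastoid 4. With the same entry for both sets it was not called (-1.36 ± 0.41).

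The largest falls were CAV1, TIMP3, CCKBR, KRT23, PCAT14, NFE2L3, HPGD, PHLDA2, MUC15 and NTS. CAV1 stood at 9.4 and 6.01 CPM against 177 and 159 (-4.49 ± 0.23), CCKBR at 37.2 and 22.3 against 181 and 181 (-2.66 ± 0.20) and KRT23 at 24.2 and 11.8 against 161 and 71.5 (-2.64 ± 0.22). Of the CAV1 UMIs, 97 in blastoid 3 and 93 in blastoid 4 lay in the amnion-like cells of cluster 10. Those of cluster 2 held 12 and 25 and those of cluster 6 held 0 and 6. NTS rests on blastoid 3, with 23.3 and 19.1 against 175 and 20.9 CPM and a log2 fold change of 0.01 without that sample. Of 16 trophoblast genes 7 were called lower and 1, ITGA2, higher, and PEG10 stood at 1070 and 317 against 2556 and 1081 CPM. Of 15 genes shared with trophectoderm, DLX3, DLX5, GATA2, MSX1 and TBX3 were lower in the GABRP or VTCN1 cells and HAND1, KRT8, KRT18 and KRT19 higher. Junction genes moved little, with 4 of 40 called higher and 1 lower and EPCAM at 484 and 418 against 446 and 465 CPM. Of 20 G2 and M phase genes none was called. Of 27 mesenchyme genes 9 were called higher and 0 lower, with a median of 0.37, and of 19 dissociation stress genes 10 were called higher and 0 lower, with a median of 0.54 against -0.01 over all genes; their part in the other differences was not tested. Cluster 10 held 18.8% and 21.4% of the cells with neither marker and 4.64% and 2.24% of the others, and cluster 2 held 6.25% and 8.93% against 61.6% and 79.7%.

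Between the 2 samples the amnion-like cells were alike in most genes. Of 3297 genes at 50 CPM or more in at least 1 of the 2 sums, 3256 (98.8%) were within 2-fold of each other, and with 1 sum per sample there is no test. CD74, the invariant chain of MHC class II, stood at 53.8 CPM in blastoid 3 and 187 in blastoid 4, MTUS2 at 24.5 and 82.4, and PAPPA2 at 112 and 247. PEG10 (1341 and 386) and the Notch target HES1 (1422 and 442) were higher in blastoid 3. PEG10 was higher in blastoid 3 within each cluster, at 622 against 234 in cluster 2, 1452 against 516 in cluster 6 and 5116 against 2096 in cluster 10, and also in the other cells, at 974 against 392.

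Across all kept blastoid cells, the log values of EPCAM, the glucose transporter gene SLC2A3 and EPAS1 were among the 5 closest to those of several markers. For TFAP2A they were EPCAM (Pearson r of 0.59 over 2289 cells of blastoid 3 and 0.62 over 1951 of blastoid 4), SLC2A3 (0.52 and 0.59) and CDH1 (0.50 and 0.54). For GABRP they were ANXA3, an annexin (0.63 and 0.64), SLC2A3 (0.59 and 0.67) and the hypoxia factor EPAS1 (0.55 and 0.71), and for KRT7 EPCAM (0.50 and 0.59). EPCAM or SLC2A3 was among the first 2 for each of the 5 markers. These values are descriptions, since the cells of a sample share a library and differ in depth.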

How the data were processed

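Single-cell RNA was measured with the 10x Chromium 3′ kit (v3.1) in 2 hESC and 2 blastoid samples of KhES1. The authors deposited tables of raw UMI counts per gene and barcode. The submitters' processing notes name Cell Ranger and GRCh38, and the version is not given in the sources used here. Barcodes with at least 500 genes were kept. The members and the gene lists (25 lists, 455 genes) were chosen with earlier results of these data known.

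Counts were summed per sample and class and tested with edgeR 4.0.16 (quasi-likelihood, TMM scaling, filterByExpr, Benjamini-Hochberg adjustment over all genes tested), without the 10 genes of the rule. Comparisons within blastoids carried the sample as a block, since both sums of a sample come from 1 library, and that library is the source of the pairing. SEs are of the log2 fold change and rest on a spread pooled over genes. Named genes were the 10 largest rises and 10 largest falls of each comparison that were called, averaged 5 or more in log2 CPM and had sums that did not overlap (within each sample where paired), and genes of the lists, of which the called ones of largest level and the defining ones were named. A fold against a group at 0 was set against a floor of 3 counts over the group.

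Clusters came from scanpy 1.11.5 (2000 variable genes, 30 principal components, 15 neighbours, Leiden resolution 0.5). Doublets were scored by Scrublet with a threshold of 0.25 and kept except in 1 alternative. The tables hold 14930662 and 17716886 UMIs for the hESC samples and 15682286 and 18193164 for the blastoids. The tests were also run on simulated sums with known changes. Those were drawn at 1 fixed spread and without a sample effect, so they cannot show how the tests behave on the real paired sums. Alternatives were DESeq2 1.42.0, library-size scaling, no filter, thinning, other thresholds and leaving out doublets, shared barcodes or a sample.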

Additional observations from a re-analysis of the deposited data

Results flagged for a closer look

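Barcodes with fewer than 500 genes entered no comparison. In blastoid 3, 17 of 1198 such barcodes (1.42%, 95% exact interval 0.829 to 2.26) met the rule for amnion-like cells. In blastoid 4, 0 of 120 did, which allows a share of up to 2.5%, and in hESC 1 and hESC 2 the counts were 0 of 3676 and 0 of 4400, which allow up to 0.0816% and 0.0682%. The share in blastoid 3 thus stands above the stem cell samples. Of the 17 barcodes, 13 carry the barcode of an amnion-like cell of blastoid 4. The low barcodes of blastoid 3 had a median of 346 UMIs.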

How the results depend on the processing

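The 7640 genes called between amnion-like and other blastoid cells became 3327 with a log2 past 1, 3574 with DESeq2, 2829 after thinning to 2000 UMIs, and 4484 to 5643 with 1 sample left out, a fit that took its spread from the hESC sums and assumes that the lone sample varies like them. With no replicate block, that is without the pairing of the sums of a sample, 4303 were called. All 3574 and all 4303 were among the 7640, with the same sign. The 8913 against the stem cells became 5257 past a log2 of 1, 4853 after thinning, and 6644 to 9369 with 1 sample left out. The 491 within the amnion-like cells became 319 past a log2 of 1, 131 with DESeq2, 56 after thinning, 272 without shared barcodes, 137 without the replicate block, 434 with the same entry for both sets and 201 to 286 with 1 sample left out. The comparison with the stem cells has no pairing to block. The share of amnion-like cells in the majority clusters (mean 96.3%) was 97.7% at resolution 0.3 and 97.8% with 15 principal components. The mean share of amnion-like cells (24.3%) ranged from 13.6% to 24.6% over the alternatives and from 16% to 32.6% by sample.

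Values that changed sign against the other blastoid cells were, after thinning, CA2 (-0.18), CCNE1 (-0.10), ENO1 (-0.00), SMAD1 (0.09) and THY1 (0.04). With at least 3 markers they were CAV1 (-0.37), CCNE1 (-0.01) and PEG10 (-0.03), without blastoid 4 FN1 (-0.01, and 0.60 without blastoid 3) and IGFBP3 (-0.03, and 0.63 without blastoid 3), and without shared barcodes IGFBP3 (-0.10). Within the amnion-like cells they were CLDN10 (0.25 without shared barcodes, 0.71 without blastoid 4, -2.19 without blastoid 3), KRT16 (-0.85 after thinning) and NTS (0.01 without blastoid 3, -2.79 without blastoid 4). The cause was not tested in any of these, and the thinned fits changed the classes as well as the depth. Each named or listed gene was also set against the main fit in every setting. Of these values, 4449 were counted as unchanged in the first comparison and 318 lost the call. The numbers were 4457 and 139 against the stem cells, and 2980 and 285 within the amnion-like cells. Unchanged values include genes that were called in neither fit. With DESeq2, 228 values within the amnion-like cells were counted as unchanged, while 131 genes were called there in all.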
